A study of Mus musculus with 18 samples.

Results

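Pknox1, the gene of the homeobox protein PREP1, was the most abundant of the 9 genes described here in P19 cells with a hotspot mutant Dicer, where it averaged 127 TPM against 11.4 TPM in WT cells. The 9 genes, of 55450 measured, were Pknox1 and Pknox2 (the PREP class), Meis1, Meis2 and Meis3 (the MEIS class), Pbx2, Pbx3 and Pbx4 (the PBX class) and Tgif1 (the TGIF class). Pknox1 was chosen by its measured TPM in these same samples, for a high value in HM cells and a low value in HetKO cells, so its levels are given as a description without a test. The other 8 genes were taken as members of its homeobox class.

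P19 is a mouse embryonic carcinoma line, an undifferentiated line derived from a teratocarcinoma. mRNA was sequenced from 6 samples each of WT cells with genotype Dicer (+/+), HetKO cells with genotype Dicer (+/-) and HM cells with genotype Dicer (HM/-), 18 samples in all and without any treatment named in the labels. In HetKO cells CRISPR cutting had truncated 1 Dicer allele. HM cells were made from HetKO cells and therefore hold the same truncated allele, together with a hotspot mutation of the RNase IIIb domain on the full-length allele. RNase IIIb makes the cut that frees the 5p-miRNA from its hairpin precursor. Each genotype was represented by a single line, so a difference between genotypes and a difference between clones cannot be told apart. The values are TPM, a transcript level scaled for transcript length and to a fixed total in each sample. They can be compared between genes, but they keep no depth, so how many reads stand behind each value is unknown.

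TALE homeobox proteins carry a loop of 3 additional amino acids in their DNA-binding homeodomain. PBX proteins bind DNA together with HOX proteins and with MEIS or PREP proteins. MEIS and PREP proteins bind the same surface of PBX and hold it in the nucleus, where PBX that lacks such a partner is exported or degraded. TGIF1 belongs to the same superclass but acts as a repressor of SMAD and retinoid signalling. The pairing of these proteins makes the summed level of the MEIS and PREP genes relative to the PBX genes a natural quantity to describe.

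Pknox1 (ENSMUSG00000006705.13) lies on the plus strand of chromosome 17 in GRCm38, at chr17:31564734-31607693. Pbx2 (plus strand, chr17:34591266-34597400) and Tgif1 (minus strand, chr17:70844205-70853546) lie on the same chromosome. Pbx3 and Meis2 lie on chromosome 2, Meis3 on chromosome 7, Pbx4 on chromosome 8, Pknox2 on chromosome 9 and Meis1 on chromosome 11.

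Dicer acts on mRNAs through miRNAs, so short sequence matches between these genes and the miRNAs probed in the study are shown first. The seeds (bases 2 to 8) of 15 probed miRNAs, 13 distinct seeds in all, were searched as 7-base complements on the sense strand of the longest annotated 3′ UTR of each gene. The 3′ UTR of Pknox1 is 2729 bases long and held 5 matches, 3 to 5p and 2 to 3p seeds, at 1.83 per 1000 bases. The median gene, among 11936 that averaged 1 TPM or more and had a 3′ UTR of at least 50 bases, held 1 match in a 3′ UTR of 1201 bases (median over genes), and all these 3′ UTRs pooled held 1.29 matches per 1000 bases. The miRNAs whose seeds matched Pknox1 are printed 5′ to 3′ from RefSeq (GRCm38.p6), with the seed in capitals.
miR-17-5p: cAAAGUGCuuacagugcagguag
miR-20b-5p: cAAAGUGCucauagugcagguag
miR-26a-5p: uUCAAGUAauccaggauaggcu
miR-19b-1-5p: aGUUUUGCagguuugcauccagc
miR-17-3p: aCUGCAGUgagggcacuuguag
miR-19b-3p: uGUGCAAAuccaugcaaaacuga

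miR-17-5p and miR-20b-5p share the seed AAAGUGC, and the other 4 seeds differ from it and from each other. The 5 windows of 29 bases around the matches in the Pknox1 3′ UTR are printed as the sense strand in the order of the transcript, with the match in capitals. All lie on the plus strand of chromosome 17 in GRCm38.
miR-19b-3p match, chr17:31605002-31605030: actcttcactgTTTGCACagcaagcatct
miR-17-5p and miR-20b-5p match, chr17:31605064-31605092: atatagaaggtGCACTTTtgtatttcgca
miR-17-3p match, chr17:31605769-31605797: cgcctagtctgACTGCAGttccatggctg
miR-26a-5p match, chr17:31606812-31606840: caagcctgggcTACTTGAccctgtcttaa
miR-19b-1-5p match, chr17:31607120-31607148: aaaaaaatcgaGCAAAACtcctgctcgcc

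The first 2 matches lie at bases 49 to 55 and 111 to 117 of the 3′ UTR, close to the stop codon, and the matches do not overlap. Each of these matches is common. TTTGCAC was present in 13.9% of the 11936 3′ UTRs, GCACTTT in 14.8%, ACTGCAG in 16.8%, TACTTGA in 11.6% and GCAAAAC in 9.03%. In the shortest annotated 3′ UTR of Pknox1 the count of matches was 1. Which of the 3′ UTR forms the cells used was not tested, and a match is a description of letters, not of a site that was bound.

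Pbx3 is shown beside Pknox1 because it was the other gene of the 9 whose HM samples all exceeded WT. Its 3′ UTR of 1560 bases held 3 matches, each to a 5p-miRNA seed. The windows are printed as the sense strand, which is the minus strand of chromosome 2 in GRCm38.
miR-17-5p and miR-20b-5p match, chr2:34172676-34172704: ttaaaaagaaaGCACTTTatccaattagg
miR-15b-5p and miR-16-5p match, chr2:34172241-34172269: gatgaagatctTGCTGCTacagaggtgaa
miR-7a-5p match, chr2:34171505-34171533: tggattgaaaaGTCTTCCttgtggtagtt

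GCACTTT was the match that Pknox1 and Pbx3 had in common. TGCTGCT was present in 25.2% of the 3′ UTRs and GTCTTCC in 14.2%. Meis1, with the longest 3′ UTR of the 9 genes at 5687 bases, held 7 matches, 3 to 5p and 4 to 3p seeds. Tgif1 held 2, both to 3p seeds, and Pknox2 held 1, to a 3p seed. Meis2 and Pbx2 held 1 each, to a 5p seed as in Pbx3, and both had lower means in HM than in WT. Meis3 and Pbx4, with 3′ UTRs of 472 and 205 bases, held 0. A link between matches and levels was not tested. The levels of the miRNAs themselves were not analysed here.

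Dicer1, the edited gene, had a mean of 52.3 ± 2.09 TPM (SD, n = 6) in WT, 48.0 ± 4.10 in HetKO and 40.3 ± 3.18 in HM. The HM samples, at 35.4 to 44.2 TPM, lay below the WT samples, at 49.2 to 54.8 TPM. The value of a whole gene cannot show a point mutation or a truncated allele, so it does not check the genotype. The 6 pluripotency markers Pou5f1, Sox2, Nanog, Utf1, Lin28a and Sall4 summed to 2635 to 2883 TPM in WT, 2447 to 2977 in HetKO and 2830 to 3100 in HM. Of these, Sox2, Utf1 and Lin28a rose and Nanog and Sall4 fell in HM relative to WT (5 calls, 3 on pair means), and Sall4 and Sox2 rose and Utf1 fell in HetKO (3 calls, 0 on pair means). The 4 mesendoderm markers T, Eomes, Mixl1 and Gsc summed to 14.1 to 25.7 TPM in WT, 9.66 to 194 in HetKO and 31.6 to 68.8 in HM. Of these, 3 of 4 rose in HM relative to WT (2 on pair means). Mixl1, 1 of the 3, averaged 0.725 TPM in WT and 1.32 in HM. It reached the mean of 1 TPM needed for a test through its HM values. The 4 fibroblast markers summed to 29.7 to 33.2 TPM in WT, 9.74 to 38.9 in HetKO and 18.5 to 24.2 in HM, with 2 of 3 tested lower in HM than in WT (1 on pair means). Of 5 neural markers 4 had a mean under 1 TPM, and of 4 endoderm markers 3 did. Gata6, the endoderm marker tested, was at 1.88 ± 0.90 TPM in WT, 1.56 ± 0.529 in HetKO and 0.597 ± 0.398 in HM. It fell in HM relative to WT (adjusted p = 0.00625 from limma) and to HetKO (0.0165), with 0 calls on pair means. Its HM mean was under 1 TPM, so it entered these tests through its WT and HetKO values. These marker calls stand beside 51.4% of all tested genes called in HM relative to WT (19.4% higher and 32% lower). The share was 10.2% for HetKO against WT and 34.6% for HM against HetKO. With pair means, 3414 of 14043, 35 of 13999 and 454 of 13762 genes were called, in the same order. The marker lists are too short to read against such shares. The part of these other cell types in the results below was not tested. Fewer cells of a type and less RNA per cell cannot be told apart in bulk samples.

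Some samples of a line resembled each other more than the rest did. The robust SD of their log2 differences over 683 abundant genes (200 TPM or more on average) was 0.0595 to 0.105 in HM for the pairs 1 with 4, 2 with 3 and 5 with 6, and 0.168 to 0.279 in the other 12 pairings. The corresponding HetKO values were 0.0510 to 0.0696 for the pairs 1 with 4, 2 with 5 and 3 with 6, below the 0.164 to 0.358 of the remainder. In WT the pairs of the same numbers had 0.0493 to 0.0746, and the remainder 0.0730 to 0.205. WT samples 2, 3, 5 and 6 were all alike (0.0493 to 0.0939), and samples 1 and 4 stood apart from them (0.179 to 0.205). The WT pairs 2 with 5 and 3 with 6 are therefore less distinct than the pairs of the other lines. Nothing in the labels says whether the 6 samples of a line came from separate cultures, so p-values measure the spread between these samples, which may be technical. Each test below was also run on the 3 pair means of a line, and the effect on the calls is given beside a gene or as a count for a list.

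**Figure D1:**
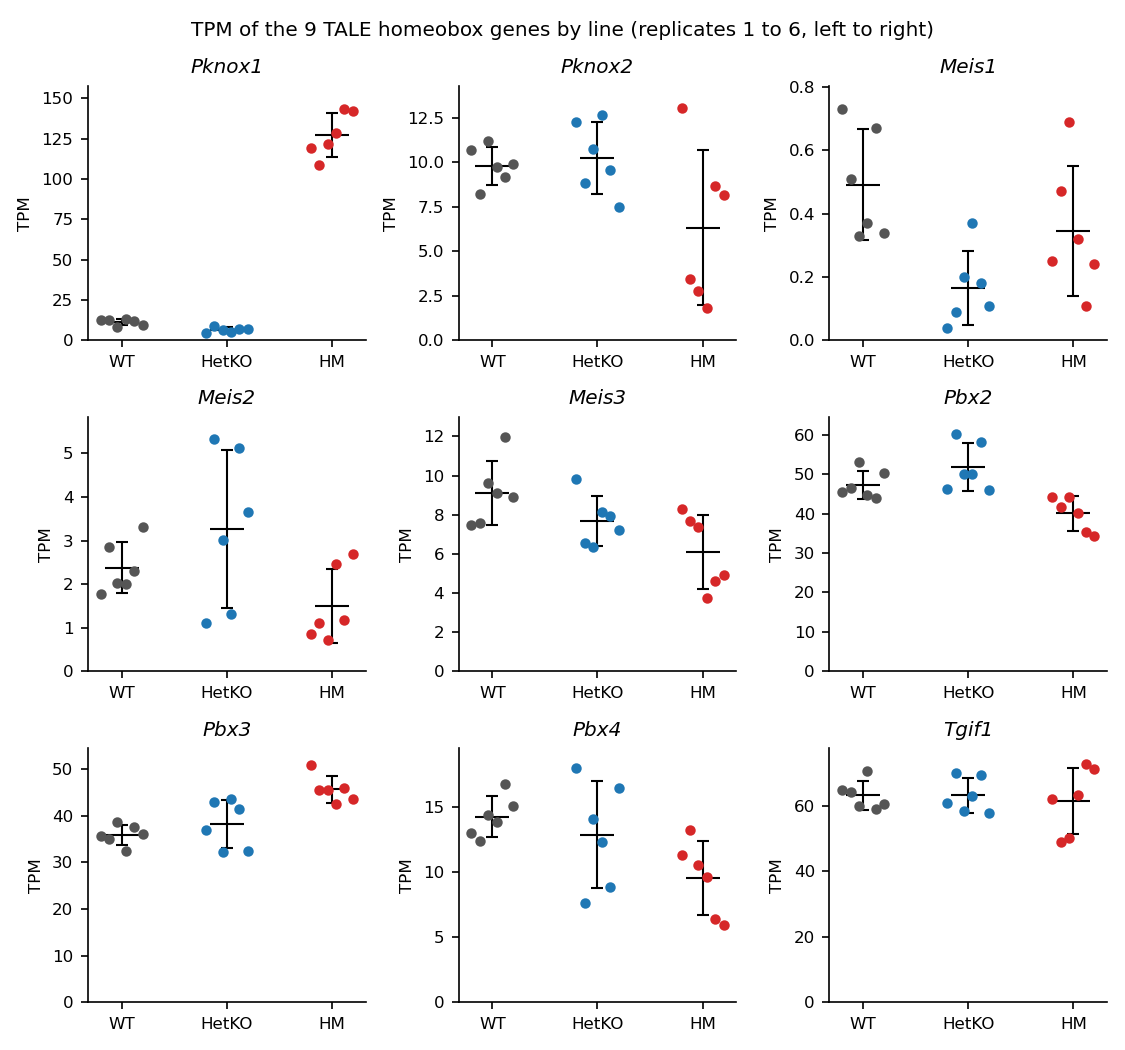
TPM of each of the 9 genes (y axis, linear, from 0, scaled separately for each gene) in the 6 samples of WT, HetKO and HM (x axis). Points are samples, the horizontal line is the mean and the bar is the SD. The HM samples of Pknox1 sit between 109 and 143 TPM, far above WT and HetKO, and those of Pbx3 between 42.6 and 51.0 TPM, above WT.

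Pknox1 was at 8.43 TPM in the lowest WT sample, 12.1 at the median and 13.4 in the highest. In HM it was at 109, 125 and 143 TPM. In HetKO it was at 4.31, 6.49 and 8.89 TPM. The HM samples stood apart from both other lines, whereas the highest HetKO sample lay above the lowest WT sample, so HetKO and WT overlapped. The means were 11.4 ± 1.93 TPM in WT, 127 ± 13.4 in HM and 6.48 ± 1.56 in HetKO (SD, n = 6 each), 11.2 times higher in HM than in WT, 19.7 times higher in HM than in HetKO and 1.76 times higher in WT than in HetKO. On the log2(TPM + 1) scale, which understates changes at low TPM, the differences were 3.38 for HM against WT, -0.74 for HetKO against WT and 4.12 for HM against HetKO. Among 14043 genes compared between HM and WT, 2 had a higher log2 difference than Pknox1. Among 13762 compared between HM and HetKO, 4 did. The HetKO difference was less extreme, with 589 of 13999 genes at a lower difference. Pknox1 was picked by these same values, so its ranks follow from that choice and are a description only. Under the alternative settings the 3 differences ranged from 3.38 to 3.56, from -0.89 to -0.66 and from 4.12 to 4.31. Pair means, a fit of all 3 lines and several other settings leave a difference of means unchanged, so they could not widen these ranges. The comparisons share their WT, HetKO or HM samples and are not independent of each other.

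The other PREP gene did not share this pattern. Pknox2 encodes PREP2, a related partner of PBX with a narrower expression in tissues. It was at 8.20, 9.82 and 11.2 TPM (lowest, median, highest) in WT, 7.5, 10.1 and 12.7 in HetKO and 1.84, 5.81 and 13.04 in HM. The HM samples fell on both sides of the WT samples, with HM replicates 2, 3 and 4 at 1.84 to 3.46 TPM and HM replicate 1 above all others. Its log2 difference was -0.78 for HM against WT (standard error 0.33, adjusted p = 0.0659 from limma, under the threshold in the fit of all 3 lines, at 0.0341). For HetKO against WT it was 0.04 (95% interval -0.22 to 0.31, adjusted p = 0.839 from limma), and for HM against HetKO -0.83 (adjusted p = 0.0787 from limma).

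Among the MEIS genes, whose proteins compete with PREP for PBX, Meis3 was the most abundant. It was at 7.46, 9.02 and 11.96 TPM in WT, 6.37, 7.60 and 9.80 in HetKO and 3.73, 6.13 and 8.27 in HM. HM replicates 4, 5 and 6 were below every WT and HetKO sample, while HM replicates 1, 2 and 3 lay among them. Meis3 fell in HM relative to WT by 0.54 on the log2 scale (standard error 0.18, adjusted p = 0.0200 from limma). The call was lost on pair means (adjusted p = 0.0596 from limma), after quantile normalization (0.107) and with samples centred on their median (0.0761). The HetKO samples differed from WT by -0.22 (adjusted p = 0.272 from limma), and HM from HetKO by -0.32 (adjusted p = 0.167 from limma).

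Meis2, a MEIS gene of the developing brain and limb, was low. It was at 1.78, 2.17 and 3.32 TPM in WT, 1.10, 3.34 and 5.32 in HetKO and 0.720, 1.14 and 2.70 in HM. All 3 lines overlapped, and HetKO had the widest spread. The log2 difference was -0.48 between HM and WT (95% interval -0.93 to -0.03, adjusted p = 0.0679 from limma), 0.22 between HetKO and WT (adjusted p = 0.616) and -0.71 between HM and HetKO (adjusted p = 0.0951). Meis1, a partner of HOX proteins in blood stem cells, had means of 0.492 ± 0.175 TPM in WT, 0.165 ± 0.116 in HetKO and 0.347 ± 0.205 in HM (SD, n = 6 each). It was under the filter of 1 TPM and was not tested in the main analysis. In a fit without that filter the HetKO difference of -0.35 had an adjusted p = 0.0340 from limma, at a level where TPM printed to 2 decimals leaves little precision.

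Pknox1 thus set the summed level of the MEIS and PREP genes in HM. The sum of Pknox1, Pknox2, Meis1, Meis2 and Meis3 was 33.2 ± 1.75 TPM in WT, 27.8 ± 1.82 in HetKO and 142 ± 14.2 in HM (SD, n = 6 each). Pknox1 made up 34.3% ± 5.24 of it in WT, 23.2% ± 5.09 in HetKO and 89.9% ± 3.23 in HM. Without Pknox1 the sum was 21.8 ± 1.81 TPM in WT, 21.4 ± 1.81 in HetKO and 14.3 ± 4.78 in HM, where it ranged from 8.35 to 22.4 and overlapped WT, at 19.2 to 24.1. These sums contain Pknox1 or were formed beside it and were not tested.

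**Figure D2:**
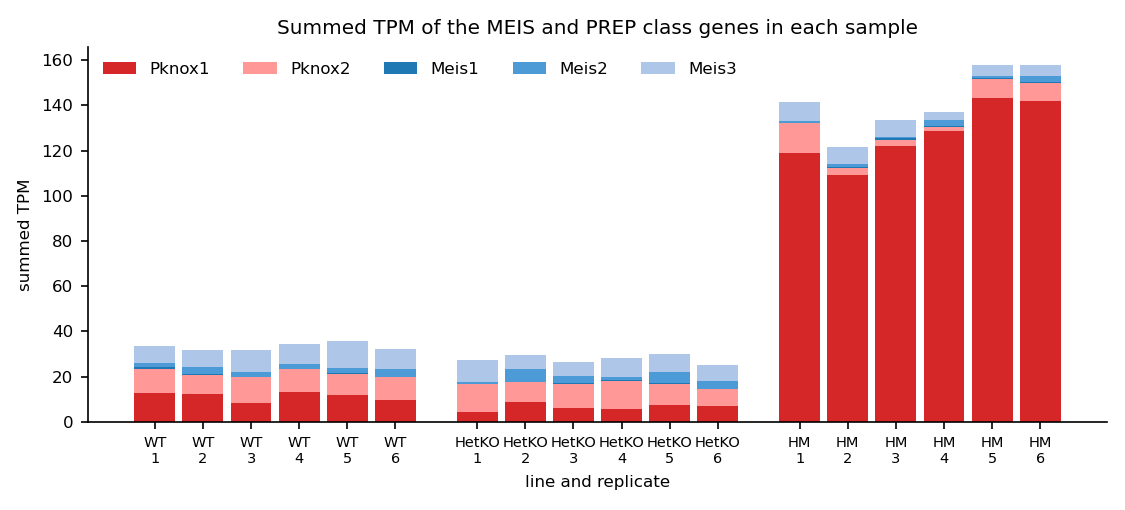
Summed TPM (y axis, linear) of the MEIS and PREP class genes in each of the 18 samples (x axis), stacked by gene. The HM bars reach 122 to 158 TPM, of which Pknox1 (red) is 84.2% to 93.9%, against 31.6 to 35.9 TPM in WT.

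The PBX genes, the binding partners of PREP1, changed far less than Pknox1. Pbx3, which encodes a PBX protein prominent in the nervous system and in leukaemia, was at 32.5, 35.9 and 38.6 TPM in WT, 32.2, 39.2 and 43.6 in HetKO and 42.6, 45.4 and 51.0 in HM. Every HM sample lay above every WT sample, and HetKO spanned the range between. Pbx3 rose in HM relative to WT by 0.34 on the log2 scale (standard error 0.06, adjusted p = 0.000454 from limma), and it passed in all 9 alternatives run. Relative to HetKO it rose by 0.26 (adjusted p = 0.0400 from limma, standard error 0.09), while the samples overlapped. That call was lost in 5 of 10 alternatives, among them pair means (0.269) and the fit without HM replicates 2 and 3 (adjusted p = 0.0825 from limma).

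Pbx2, a broadly expressed PBX gene, moved the other way. It was at 43.9, 46.0 and 53.0 TPM in WT, 45.9, 50.03 and 60.1 in HetKO and 34.3, 41.0 and 44.3 in HM. The HM samples lay below all HetKO samples and overlapped the lowest of WT. Pbx2 fell in HM by 0.24 relative to WT (adjusted p = 0.0195 from limma, standard error 0.08) and by 0.36 relative to HetKO (adjusted p = 0.00994 from limma, standard error 0.09). With samples centred on their median the difference from WT was -0.06 (adjusted p = 0.469 from limma), after quantile normalization its adjusted p was 0.0533, and on pair means the adjusted p was 0.163 against WT and 0.177 against HetKO. The call against HetKO was also lost with samples centred (adjusted p = 0.0747 from limma).

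Pbx4, a PBX gene known for its expression in testis, was at 12.4, 14.1 and 16.8 TPM in WT, 7.60, 13.2 and 17.99 in HetKO and 5.97, 10.1 and 13.2 in HM. HM replicates 5 and 6 were the 2 lowest of the 18 samples. The HM range overlapped the lower end of WT. Pbx4 fell in HM relative to WT by 0.58 (standard error 0.17, adjusted p = 0.0106 from limma), a call lost on pair means (adjusted p = 0.0907 from limma). Its HM samples differed from HetKO by -0.39 (adjusted p = 0.201 from limma) and became -0.66 (adjusted p = 0.0238) without HetKO replicates 2 and 5, which held the lowest HetKO values.

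Pbx2, Pbx3 and Pbx4 together summed to 97.5 TPM in WT, 103 in HetKO and 95.2 in HM. The ratio of Pknox1 to this sum was 0.118 ± 0.0257 in WT, 0.0628 ± 0.0137 in HetKO and 1.36 ± 0.262 in HM (SD, n = 6 each). In each HM sample Pknox1 therefore exceeded the summed PBX2 to PBX4 mRNA, with a lowest ratio of 1.09, and in each WT sample it was at most 0.147 of it.

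Tgif1, the repressor, was the most abundant of the 9 genes in WT. It was at 59.0, 62.4 and 70.6 TPM in WT, 57.9, 62.0 and 70.0 in HetKO and 49.1, 62.7 and 72.8 in HM. HM replicates 2 and 3, an alike pair, were the lowest of all samples and HM replicates 5 and 6 the highest. The log2 difference was -0.05 between HM and WT (95% interval -0.27 to 0.16, adjusted p = 0.674 from limma), 0.00 between HetKO and WT (95% interval -0.14 to 0.14) and -0.05 between HM and HetKO (95% interval -0.28 to 0.17). Its sign depended on the scaling and on the pair of samples left out.

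**Figure D3:**
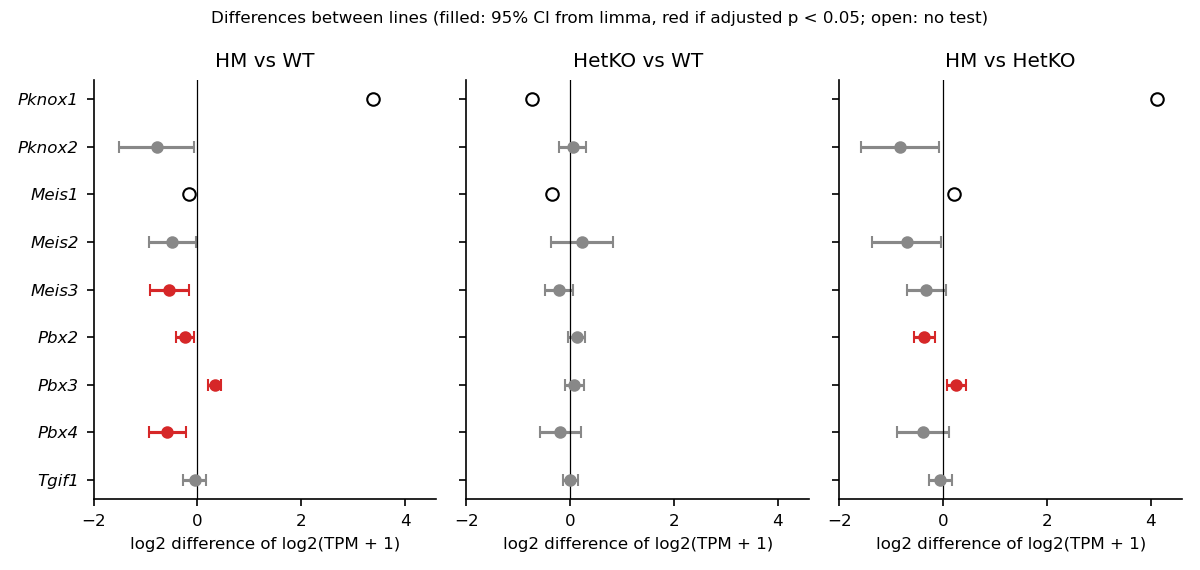
Difference of mean log2(TPM + 1) (x axis) for each of the 9 genes (y axis) in the 3 comparisons. Filled points have 95% intervals from limma and are red where the adjusted p was under 0.05, and open points were not tested. Pknox1 lies at 3.38, -0.74 and 4.12, and every other gene within 0.83 of 0.

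Counted together, 8 of the 9 genes passed the filter and 7, without Pknox1, were tested. Between HM and WT, 4 of 7 passed, with Pbx3 higher and Pbx2, Pbx4 and Meis3 lower, and the median log2 difference of the 7 was -0.48. The background was 51.4% of 14043 genes (19.4% higher and 32% lower in HM), with a median of -0.09, so a count of 4 of 7 was close to the background. For HetKO against WT, 0 of 7 passed in limma, with 0 at an unadjusted p under 0.05 and 0 in the unequal-variance test, and their median was 0.04. There the background was 10.2% of 13999 genes (3.71% higher and 6.44% lower in HetKO) with a median of -0.03. For HM against HetKO, 2 of 7 passed, Pbx3 higher and Pbx2 lower, beside a background of 34.6% of 13762 genes (14% higher and 20.6% lower in HM). The medians were -0.36 for the 7 genes and -0.05 for the background. The HM against WT median of the background moved to 0.02 after quantile normalization and to 0.08 with samples centred on their median, and each sign here is relative to that choice. The share of passing genes that were higher was 37.7%, 51.1% and 61.0% between HM and WT under the 3 scalings (as deposited, quantile normalized, centred). The same shares were 36.5%, 48.1% and 50.7% for HetKO against WT, and 40.4%, 49.3% and 60.9% for HM against HetKO.

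The order of levels showed the same contrast. In WT the order was Tgif1 at 63.2 TPM, Pbx2 at 47.3, Pbx3 at 35.9, Pbx4 at 14.3, Pknox1 at 11.4, Pknox2 at 9.81, Meis3 at 9.11, Meis2 at 2.38 and Meis1 at 0.492. Pbx4, Pknox1, Pknox2 and Meis3 overlapped with their neighbours in this order, and the other steps were larger than the spread between samples. In HetKO Pknox1 was seventh, between Meis3 at 7.68 and Meis2 at 3.25 TPM, and overlapped both. In HM Pknox1 came first, apart from Tgif1, which followed at 61.5 TPM, and Pbx3 at 45.7 TPM stood before Pbx2 at 40.0 with overlapping samples.

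The genes with which these proteins are known to work were described by lists. Of 8 further TALE class genes (Tgif2, Mkx and the Irx genes), Tgif2 and Mkx were tested between HM and WT. In limma 0 of 2 passed, beside 51.4% of all genes (0 at an unadjusted p under 0.05, 0 in the unequal-variance test). For HetKO against WT 0 of 3 and for HM against HetKO 0 of 2 passed, beside 10.2% and 34.6% of all genes. Both had 0 at an unadjusted p under 0.05 and 0 in the unequal-variance test. Counts of 2 or 3 genes are too few to read against such shares. Tgif2 was at 42.2 ± 1.39 TPM in WT and 47.5 ± 9.59 in HM (SD, n = 6 each).

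Most of the Hox genes listed as partners of PBX were nearly silent. The list holds no Hoxc gene, and Hox genes outside it were not examined. Of 19 Hox genes, 18 had a mean under 1 TPM over the 18 samples, and the sum of all 19 was 4.33 to 9.31 TPM in WT, 1.53 to 4.64 in HetKO and 4.57 to 11.9 in HM. Between HM and WT 0 of 2 tested passed in limma, beside 51.4% of all genes, with 1 at an unadjusted p under 0.05 and 0 in the unequal-variance test. For HetKO against WT 0 of 1 passed, beside 10.2% of all genes, again with 1 and 0. Hoxd4 was the gene of 2 tested that passed between HM and HetKO, beside 34.6% of all genes. Its means were 3.00 TPM in HM and 1.16 in HetKO (log2 difference 1.00, standard error 0.29, adjusted p = 0.0202 from limma, 0.188 on pair means).

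Of 10 PBX regulators and partners outside the Hox genes, 7 were tested between HM and WT. There 3 were higher and 2 lower, beside 51.4% of all genes called. Pair means gave 5 calls, beside 3414 of 14043 genes, and the unequal-variance test gave 6, beside 6720. Between HM and HetKO 5 of 7 passed, beside 34.6% of all genes. On pair means 2 passed, beside 454 of 13762 genes. The Engrailed genes, homeobox repressors that bind DNA with PBX, had the largest changes. En1 was at 1.14 ± 0.529 TPM in WT, 0.482 ± 0.250 in HetKO and 10.2 ± 6.60 in HM. Its log2 difference was 2.17 between HM and WT (adjusted p = 0.000466 from limma) and 2.68 between HM and HetKO (adjusted p = 0.000227). En1 averaged under 1 TPM in HetKO, so it entered the HM against HetKO test through its HM values. Between HetKO and WT it was under the filter and was not tested. En2 was at 2.63 ± 1.08 TPM in WT, 0.585 ± 0.166 in HetKO and 9.43 ± 5.66 in HM. En2 thus rose in HM (log2 difference 1.41, adjusted p = 0.00236 from limma) and fell in HetKO (-1.15, adjusted p = 0.00192, 0.192 on pair means). Its HetKO mean was also under 1 TPM. It therefore entered the test against HM through its HM values and the test against WT through its WT values. For En1 and En2 all HM samples lay above all WT samples, and for En2 all HetKO samples lay below them. Hdac1, a histone deacetylase that PBX can recruit, rose in HM by 0.51 (adjusted p = 0.000561 from limma), while Hdac3 fell by 0.50 (adjusted p = 4.7e-05) and the corepressor gene Ncor1 by 0.29 (adjusted p = 0.000461).

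The TGIF and SMAD corepressor partners were all expressed. Between HM and WT 4 of 9 rose and 3 fell, beside 19.4% and 32% of all genes. The count of 7 calls became 2 on pair means, 4 with samples centred and 4 in the unequal-variance test. Hdac1, Ski (log2 difference 0.54, adjusted p = 0.0482 from limma, 0.205 on pair means), the retinoid receptor gene Rxra (0.47, adjusted p = 0.000400) and Smad2 (0.32, adjusted p = 0.00234) rose. Smad3 fell by 0.50 (adjusted p = 0.0173 from limma), with calls lost on pair means (0.129) and with samples centred (0.0745), and Smad4 and Skil fell by 0.32 and 0.26. In HetKO relative to WT 0 of 9 passed in limma, beside 10.2% of all genes, with 1 at an unadjusted p under 0.05 and 0 in the unequal-variance test. In HM relative to HetKO 4 of 9 rose and 0 fell, beside 14% and 20.6% of all genes. On pair means 0 of 9 passed, beside 454 of 13762 genes. Of 10 genes with known TALE-bound enhancers 9 had a mean under 1 TPM, and Plau, a urokinase gene with a PREP and PBX site in its enhancer, was the single one tested. Plau was at 1.78 ± 0.262 TPM in WT, 0.967 ± 0.255 in HetKO and 1.02 ± 0.547 in HM. With a HetKO mean under 1 TPM, it entered the test of HetKO against WT through its WT values. It fell by 0.49 in HM (adjusted p = 0.0219 from limma, 0.147 on pair means) and by 0.50 in HetKO (adjusted p = 0.0250, 0.451 on pair means). The HM call was also lost after quantile normalization (0.166), with samples centred (0.126) and without HM replicates 2 and 3 (0.0873). The HetKO call was also lost after quantile normalization (0.0831), without HetKO replicates 2 and 5 (0.0667) and with the replicate block (0.0734).

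The genes around Pknox1 were examined for a change of the same kind. Within 0.5 Mb of Pknox1, 41 genes are annotated and 13 were tested. Between HM and WT, 4 were higher and 4 lower, with a median of -0.17 and a range from -1.10 to 0.77 on the log2 scale, against 3.38 for Pknox1. This count of 8 of 13 stands beside a background of 51.4% of all genes. On pair means 7 of 13 passed, beside 3414 of 14043 genes. Sik1, a kinase gene (0.69), the ribosomal RNA processing gene Rrp1b (0.77), the splicing factor gene U2af1 (0.41) and Cbs (0.37, adjusted p = 0.0332 from limma, 0.164 on pair means), which encodes cystathionine beta-synthase and lies 1.20 kb beyond the end of Pknox1 on the other strand, rose. Rsph1 (-1.10), Pde9a (-1.08), AC166575.1 (-0.74) and the complex I subunit gene Ndufv3 (-0.71) fell. The 4 lower genes lie before the start of Pknox1 or within it, and the 4 higher genes lie beyond its end. This split by side was seen in the data and was not tested. In HetKO relative to WT 0 of 13 passed in limma, beside 10.2% of all genes, with 3 at an unadjusted p under 0.05 and 0 in the unequal-variance test. In HM relative to HetKO 3 were higher and 4 lower, beside a background of 34.6%. On pair means 0 passed, beside 454 of 13762 genes.

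AC166575.1 lies inside an intron of Pknox1 on the same strand. Its mean was 3.21 ± 0.359 TPM in WT, 2.78 ± 0.856 in HetKO and 1.56 ± 0.50 in HM, lowest in the line where Pknox1 was highest. AC166172.4, an antisense gene that overlaps the start of Pknox1, was at 0.150 ± 0.0477 TPM in WT, 0.148 ± 0.0691 in HetKO and 0.225 ± 0.0683 in HM. The library kit marks strand, but whether strand was used in the quantification is not given in the sources used here, so reads that overlap both genes may be shared between them.

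**Figure D4:**
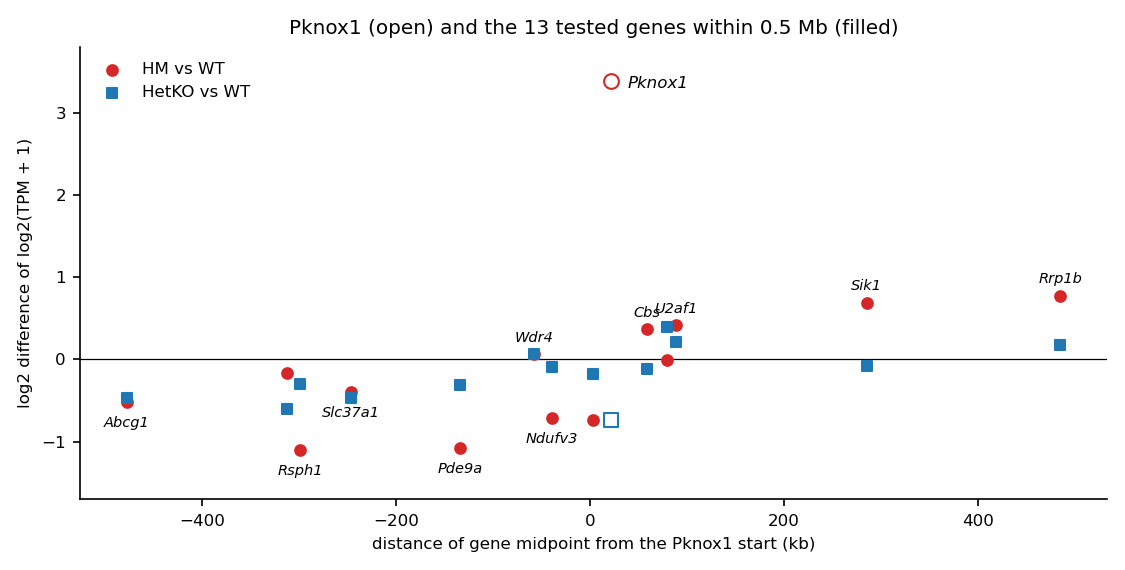
Difference of mean log2(TPM + 1) (y axis) against the distance of each gene's midpoint from the start of Pknox1 in kb (x axis) for the 13 tested genes within 0.5 Mb, for HM against WT (red circles) and HetKO against WT (blue squares). Open symbols are Pknox1, at 3.38 and -0.74, and the neighbours range from -1.10 to 0.77 in HM.

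The genes most like Pknox1 were found by Pearson's r of log2(TPM + 1) over the 18 samples, among 13954 genes that averaged 1 TPM or more. The samples form 3 groups, so r mainly reflects the differences between lines and has no p. The 5 highest were Inpp5f, a phosphoinositide phosphatase gene (0.987), H13, which encodes signal peptide peptidase (0.977), the lysosomal adaptor gene Plekhm1 (0.976), the homeobox gene Tlx3 (0.969) and the semaphorin gene Sema7a (0.969). The 5 lowest were the transcription factor gene Atf2 (-0.989), the glycosyltransferase gene Galnt11 (-0.988), Sp3, another transcription factor gene (-0.987), Nmral1 (-0.987) and the RNA methyltransferase gene Mettl8 (-0.987). Inpp5f was at 29.7 ± 1.95 TPM in WT, 23.2 ± 2.52 in HetKO and 83.4 ± 4.80 in HM. Nmral1 was at 50.1 ± 8.44 TPM in WT, 60.3 ± 5.17 in HetKO and 0.975 ± 0.476 in HM, and Galnt11 fell to between 0 and 0.0400 TPM in HM.

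With the mean of each line subtracted, the r values were weaker, though all of the 5 lowest stayed negative. They were 0.173, 0.261, -0.283, 0.193 and 0.478 for the 5 highest in the same order and -0.564, -0.405, -0.701, -0.511 and -0.586 for the 5 lowest. Of all genes, 81 had an r of at least 0.9 and 229 of at most -0.9, and after subtraction 0 and 1 did. Atf2, Sp3 and Mettl8 lie within 3 Mb of each other on chromosome 2, between 70964561 and 73892639, and are not independent examples by position. Of the other 8 TALE genes, Pbx3 had the highest r with Pknox1 (0.695) and Pbx2 the lowest (-0.743), far from the extremes among all genes, and Tgif1 was at -0.09.

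**Figure D5:**
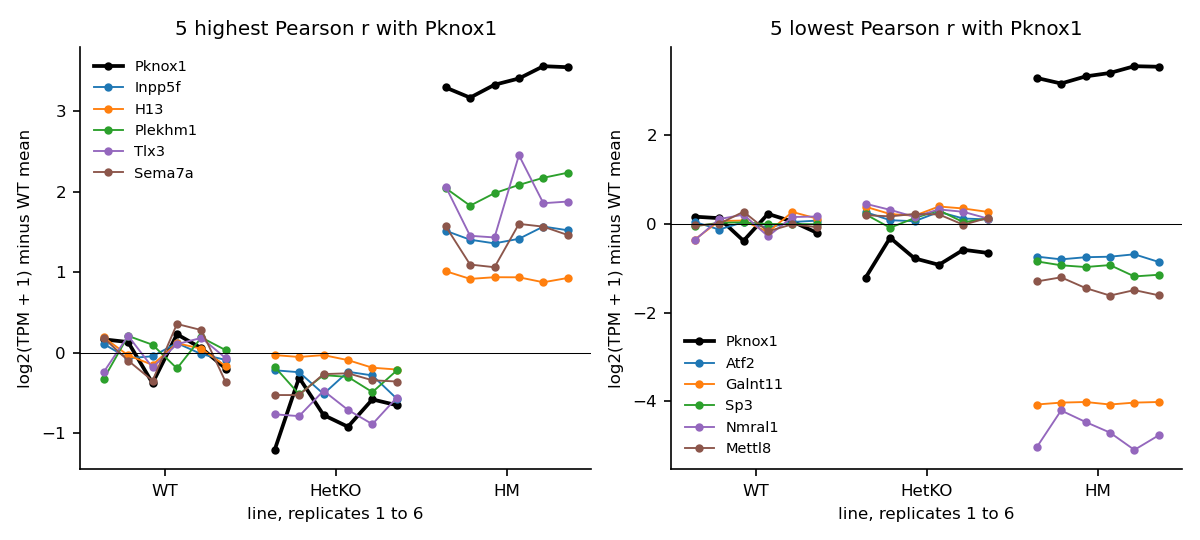
log2(TPM + 1) minus the WT mean (y axis) in the samples of the 3 lines (x axis) for Pknox1 (black) and the 5 genes with the highest r (left) and the lowest r (right). Lines join the samples of a gene within a cell line and imply no order. HM stands apart from WT and HetKO for every gene shown, upward at left and downward at right for the genes other than Pknox1.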

How the data were processed

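Poly(A)-selected RNA of 18 P19 samples was sequenced in pairs of reads from stranded libraries. BBMerge joined the read pairs and RSEM estimated gene levels, and the authors deposited the result as TPM with 2 decimals for 55450 genes. The submitters' processing notes name cutadapt, STAR and mm10. Depth is unknown, so no counting interval was set. All gene identifiers matched GENCODE M21 (GRCm38).

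Each comparison used its own 12 samples and the genes that averaged 1 TPM or more in them. limma 3.58.1 (R 4.3.3, empirical Bayes with a trend) was applied to log2(TPM + 1), with Benjamini-Hochberg adjustment over all tested genes and a threshold of 0.05. Pknox1 was not tested. Other steps used Python 3.11.15, numpy 2.4.6, pandas 2.3.3 and matplotlib 3.10.9. The fit was run on simulated independent samples to check the code. These held no alike pairs, so the run cannot show the effect of such pairs on the calls.

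The genes named were the 9 members, Dicer1, the 5 highest and 5 lowest r, up to 4 passing genes of each list, and tested genes within 0.5 Mb. Members and lists were chosen with earlier results of these data known. miR-20b-3p, whose probe and RefSeq seeds differ, was left out. A further gene of these lists is not reported here. Alternatives are described in the closing section.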

Additional observations from a re-analysis of the deposited data

How the results depend on the processing

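For each comparison 9 or 10 alternatives were run. The labels do not say what an equal replicate number marks, and deviations of samples with the same number had a mean correlation of 0.00512 (HM and WT), 0.0621 (HetKO and WT) and 0.0206 (HM and HetKO). With the replicate block 6889, 1206 and 4200 genes passed in these comparisons, against 7220, 1421 and 4765 without it, and 4, 0 and 1 of the TALE genes passed. Under the block Meis3 was lost (adjusted p = 0.0526) and Meis2 gained (0.0458) between HM and WT, and Pbx3 was lost between HM and HetKO (0.0657). Pair means gave 3414, 35 and 454 genes, and the unequal-variance test gave 852 between HetKO and WT. Between HM and WT, 4 of the TALE genes passed, 1 on pair means, 2 after quantile normalization, 2 with samples centred and 5 with all 3 lines in a fit. Between HetKO and WT 0 passed, and 1 (Meis1) without a filter. Between HM and HetKO 2 passed, 4 with all 3 lines in a fit, 3 without HetKO replicates 2 and 5, 0 on pair means, and 1 in each of the settings without HM replicates 2 and 3, without a filter, with the replicate block, with samples centred and in the unequal-variance test. Signs turned, with no call, for Tgif1 between HM and WT (0.090 without HM replicates 2 and 3, 0.12 centred), between HetKO and WT (0.055 centred) and between HM and HetKO (0.090 without HM replicates 2 and 3, 0.018 without HetKO replicates 2 and 5, 0.063 centred). They turned for Meis2 (-0.11) and Pbx4 (0.079) between HetKO and WT without HetKO replicates 2 and 5, and for the r of Plekhm1 within lines (-0.283). The causes were not tested. Depth is unknown, and Meis1 and most of the listed Hox genes were too low for a firm comparison.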

Other observations

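With line means subtracted, the 8 other TALE genes varied with Pknox1 to different degrees over the 18 samples. Meis2 (r = 0.609) and Tgif1 (0.579) varied in the same direction, Pbx4 (-0.698) and Meis3 (-0.513) in the opposite direction, and Pknox2, Meis1, Pbx2 and Pbx3 were between -0.09 and -0.01. These values have no p, since alike pairs of samples share their deviations and the 18 points are fewer than 18 independent ones.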
